A study of Arabidopsis thaliana with 6 samples.

Results

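The 7 KIP-RELATED PROTEIN genes *KRP1* to *KRP7* encode the plant inhibitors of cyclin-dependent kinases (CDKs) that are related to the mammalian inhibitor p27Kip1. They were taken by their locus identifiers from a table of 32998 Arabidopsis thaliana genes, in which all 7 were found under their KRP names, and all 7 were among the 22397 genes with enough counts to be tested. The libraries compared *mdf-1* seedlings with wild-type (WT) seedlings of the accession Columbia, with 3 biological replicates of each genotype and 1 RNA-seq library a replicate. *mdf-1* carries a T-DNA insertion in *MERISTEM-DEFECTIVE* (*MDF*), which encodes a splicing factor of the tri-snRNP and was the gene under study. Both genotypes were whole seedlings, 12 days old, raised on plates with 1% sucrose under 16 h of light at 22°C and 8 h of dark at 18°C. They differed by the *mdf-1* allele alone as far as the labels say, and the expression libraries hold this 1 allele.

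KRP proteins bind D-type cyclins and CDKA;1, the main CDK of the plant cell cycle, and hold the kinase inactive, which keeps RBR1 bound to E2F factors and delays entry into S phase. F-box and RING ubiquitin ligases mark KRP proteins for degradation, so the protein level of a KRP need not follow its transcript. At low dose KRPs are known for turning dividing cells towards endoreduplication, and at high dose for blocking both division and endoreduplication, with small plants and serrated leaves when overexpressed.

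The region of a KRP protein that resembles p27Kip1 and binds the cyclin and the CDK lies at its C-terminal end, and the last coding exon of the gene encodes the tail of it. These exons are shown because, in every member except *KRP4*, a retained last intron would put a stop codon before them. They were 64 bases long in *KRP6*, 67 in *KRP1*, 73 in *KRP2* and 70 in the other 4 genes, read from the TAIR10.1 genome in the direction of transcription to the stop codon. Capitals mark the 19 positions at which all 7 genes had the same base, in the first 30 bases and in the 12 bases that end with the TGG codon.
KRP1: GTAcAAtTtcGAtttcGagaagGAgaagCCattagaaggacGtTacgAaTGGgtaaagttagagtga
KRP2: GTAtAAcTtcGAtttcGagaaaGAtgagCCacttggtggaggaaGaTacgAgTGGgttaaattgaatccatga
KRP3: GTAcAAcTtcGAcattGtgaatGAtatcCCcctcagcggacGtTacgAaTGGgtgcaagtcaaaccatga
KRP4: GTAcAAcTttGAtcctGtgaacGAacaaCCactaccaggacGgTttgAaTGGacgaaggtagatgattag
KRP5: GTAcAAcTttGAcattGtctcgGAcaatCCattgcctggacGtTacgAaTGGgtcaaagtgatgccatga
KRP6: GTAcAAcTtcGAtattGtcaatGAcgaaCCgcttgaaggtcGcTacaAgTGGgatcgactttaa
KRP7: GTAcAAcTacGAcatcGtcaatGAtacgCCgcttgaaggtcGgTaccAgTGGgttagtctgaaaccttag
The exons lay at chr2:9977020-9977086 (minus strand) for *KRP1*, chr3:18801294-18801366 (plus) for *KRP2*, chr5:19792608-19792677 (minus) for *KRP3*, chr2:13875281-13875350 (plus) for *KRP4*, chr3:9061673-9061742 (plus) for *KRP5*, chr3:6616628-6616691 (minus) for *KRP6* and chr1:18365692-18365761 (minus) for *KRP7*.

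The intron before this exon joined the family in another way. In every member it followed 2 bases of a codon, and the first intron base would complete that codon as AAG if the intron stayed in the transcript. The start of each intron is shown with the last 6 exon bases before it, and capitals mark an in-frame stop codon that the retained intron would give within the stretch.
KRP1: gaagaagTAAgtttttattt
KRP2: tatgaagTAAgttttttttt
KRP3: ggagaagTAAgcttattctt
KRP4: tgagaagtatgtgtttcctc
KRP5: tcaaaagtacaaatcccatt
KRP6: agaaaagTGAgtccattttt
KRP7: agaaaagTGAgtctttttta
In *KRP1*, *KRP2* and *KRP3* the stop was TAA, and in *KRP6* and *KRP7* it was TGA, in all 5 at bases 2 to 4 of the intron, where the letters of the 5′ splice site themselves spell it. The *KRP5* intron reached its first in-frame stop, TAG, at bases 20 to 22, and the *KRP4* intron of 114 bases, a multiple of 3, held none, so its retention would leave the last exon in frame. Over the 21060 protein-coding genes with an intron between coding exons, 90.1% had an in-frame stop somewhere in a retained last intron and 11.8% had it complete by base 4. The reading frame of a retained transcript would end after 170 codons instead of 191 in *KRP1*, 186 instead of 209 in *KRP2*, 218 instead of 240 in *KRP3*, 173 instead of 189 in *KRP5*, 176 instead of 196 in *KRP6* and 178 instead of 200 in *KRP7*. These are readings of the annotation and say nothing of how often an intron stayed in.

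The splicing events that the study listed for *mdf-1* against WT were searched for the members in all 5 event classes. *KRP2* and *KRP7* had 1 event each, both of retained intron, and both were this last coding intron, while none was found for the other 5 members. The listed events are differences between the genotypes, and whether retention was higher or lower in *mdf-1* was not read here. Absence from these tables does not show that an intron was fully spliced. The *KRP2* intron spans 69 bases at chr3:18801225-18801293 and the *KRP7* intron 77 bases at chr1:18365762-18365838, and both are shown whole with 6 exon bases before them and the in-frame stop in capitals.
KRP2: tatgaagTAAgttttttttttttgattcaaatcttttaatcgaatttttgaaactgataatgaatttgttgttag
KRP7: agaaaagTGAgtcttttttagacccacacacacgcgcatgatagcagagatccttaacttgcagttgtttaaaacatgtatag
The study's RT-qPCR primers for intron retention aimed at the same place in *KRP2* and in *KRP6*, whose last intron spans 242 bases at chr3:6616692-6616933. In the primers below, capitals mark bases inside the last intron or, for the primer that spans the spliced junction, the bases past it.
KRP2 exon junction, forward: ggaatgttctatgaaGTATAA
KRP2 intron, forward: TGATAATGAATTTGTTGTTAG
KRP6 intron, reverse: ACTCACATTCCTCTCTCTCT
Of the junction primer, 15 bases lay before the junction and 6 after it, so it matched the spliced transcript and nowhere in the genome, and the *KRP6* intron primer matched the genome at 1 place. A transcript that keeps this last intron is part of the annotation for *KRP2*, *KRP6* and *KRP7* and for no other member. The deposited length of each gene equalled the union of its annotated exons, so the intron was inside the counted length of these 3 genes, as 6.11% of it in *KRP2*, 15.9% in *KRP6* and 6.38% in *KRP7*. Reads within the retained intron can therefore be part of the levels of *KRP2*, *KRP6* and *KRP7*. In *KRP1*, *KRP3*, *KRP4* and *KRP5* the intron was outside the counted length, and how reads that span its borders were counted is not given in the sources used here.

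**Figure D1:**
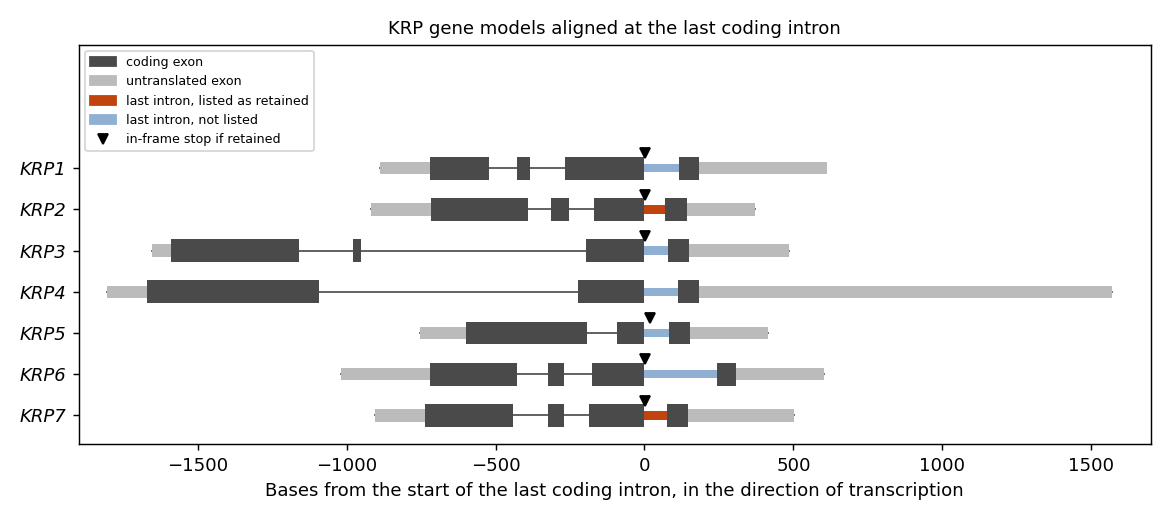
Gene models of the 7 members, drawn to scale and aligned at the first base of the last coding intron (x axis, bases in the direction of transcription). Coding exons are dark and untranslated exons light. The last intron is red in *KRP2* and *KRP7*, where the study listed a retained-intron event, and blue in the others. A triangle marks the first in-frame stop, which stands at the intron's start in 5 members, at base 20 in *KRP5* and nowhere in the *KRP4* intron.

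The libraries held 44738352 to 45418026 counts in *mdf-1* and 47175914 to 50088386 counts in WT, and between 92 and 1872 counts fell on each KRP gene in a library. The first principal component, with 86.5% of the variance, separated the genotypes, and the second, with 5.73%, set *mdf-1* replicate 3 apart from the other 2 *mdf-1* libraries. With edgeR and a Benjamini-Hochberg adjusted p below 0.05, 7504 genes were higher in *mdf-1* and 7585 were lower, so that 49.7% of the calls were upward, against 37.3% (5561 higher and 9339 lower) when libraries were scaled by their total counts, which put the median log2 fold change over the tested genes at -0.14 instead of 0.01. *MDF* itself had 16.9, 17.1 and 16.5 FPKM (fragments per kilobase of gene, scaled by library size) in *mdf-1* and 13.9, 13.2 and 13.5 FPKM in WT (log2 fold change 0.32, SE 0.049, edgeR adjusted p = 5.86e-04). These counts cover the whole gene and cannot show whether the part beyond the insertion was transcribed, so they do not check the genotype.

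The KRP transcripts moved in both directions. *KRP1*, *KRP2* and *KRP6* rose in *mdf-1*, by 2.70-, 2.15- and 1.98-fold, *KRP4* and *KRP7* fell to 0.616 and 0.663 of the WT level, and *KRP3* and *KRP5* did not pass the test. Among all 22397 tested genes 33.5% were called higher and 33.9% lower, 67.4% in all, so 5 calls among 7 members stand close to the background. The median log2 fold change of the members was 0.25, against 0.01 over all genes. Counts without overlap between the genotypes read the same way, with 4 members entirely higher and 2 entirely lower, beside 36.3% and 37.0% of all tested genes. Whole seedlings were used, so fewer cells of a type and less RNA per cell cannot be told apart in any of these values.

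*KRP1*, the first plant CDK inhibitor described and a binder of CDKA;1 and of the D-type cyclin CYCD3;1, is AT2G23430 at chr2:9976590-9978090 on the minus strand. It had the highest level of the family in every *mdf-1* library, while in WT its range overlapped that of *KRP2*. The gene had 1872, 1735 and 1650 counts in *mdf-1*, against 713, 778 and 820 in WT. That is 37.2, 34.8 and 31.9 FPKM in *mdf-1* (34.6 ± 2.67, SD, n = 3) and 12.2, 13.3 and 13.1 FPKM in WT (12.9 ± 0.596, SD, n = 3). Every *mdf-1* library lay far above every WT library. The log2 fold change was 1.43 (SE 0.075, 95% confidence interval 1.26 to 1.60, edgeR quasi-likelihood test with Benjamini-Hochberg adjustment, adjusted p = 3.56e-06), and in size it exceeded that of 85.9% of all tested genes.

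*KRP2* (AT3G50630, chr3:18800306-18801595, plus strand), known from auxin-dependent lateral root initiation and from endoreduplication in leaves, had 1319, 1393 and 1173 counts in *mdf-1* and 709, 703 and 738 in WT. Its levels were 27.3, 29.1 and 23.6 FPKM in *mdf-1* (26.6 ± 2.80, SD, n = 3), against 12.6, 12.5 and 12.3 FPKM in WT (12.5 ± 0.165, SD, n = 3). The WT libraries were almost level, the *mdf-1* libraries were spread more widely with replicate 3 lowest, and the genotypes did not overlap. The log2 fold change was 1.10 (SE 0.086, 95% confidence interval 0.90 to 1.30, edgeR with Benjamini-Hochberg adjustment, adjusted p = 1.77e-05). The gene with the listed retained intron thus had more counts in *mdf-1*, and the part of them that came from the intron was not separated here.

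*KRP6* (AT3G19150, chr3:6616330-6617951, minus strand), a target of ubiquitin ligases in the development of gametophytes, had 696, 653 and 603 counts in *mdf-1* and 398, 442 and 328 in WT. In FPKM this was 10.7, 10.1 and 9.02 in *mdf-1* (9.95 ± 0.860, SD, n = 3), against 5.27, 5.85 and 4.06 in WT (5.06 ± 0.910, SD, n = 3). The lowest *mdf-1* library lay above the highest WT library, with a spread of similar size in both genotypes. The log2 fold change was 0.98 (SE 0.14, 95% confidence interval 0.66 to 1.30, edgeR with Benjamini-Hochberg adjustment, adjusted p = 3.78e-04). The last intron makes up 15.9% of the counted length of *KRP6*. As in *KRP2*, the part of the counts that came from the intron was not separated here.

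*KRP4* (AT2G32710, chr2:13873362-13876737, plus strand), which in the shoot meristem is shared out with the DNA at division and so ties S-phase entry to cell size, moved the other way. It had 720, 782 and 750 in *mdf-1* and 1486, 1394 and 1456 counts in WT, or 7.03, 7.71 and 7.12 FPKM in *mdf-1* (7.29 ± 0.368, SD, n = 3) and 12.5, 11.7 and 11.5 FPKM in WT (11.9 ± 0.539, SD, n = 3). All *mdf-1* libraries were lower than all WT libraries. The log2 fold change was -0.70 (SE 0.066, 95% confidence interval -0.85 to -0.55, edgeR with Benjamini-Hochberg adjustment, adjusted p = 4.52e-05). *KRP4* overlaps a gene on the opposite strand, *CYTB5-B*, over 926 bases at chr2:13875812-13876737, which make up 38.7% of the counted length of *KRP4*. *CYTB5-B* had 1184, 1276 and 1346 counts in *mdf-1* and 2245, 2021 and 2312 in WT (log2 fold change -0.54, SE 0.064, edgeR adjusted p = 1.38e-04), and since a strand setting is not given in the sources used here, reads of the pair may not be told apart in the overlap.

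*KRP7* (AT1G49620, chr1:18365336-18366744, minus strand), which like *KRP6* is degraded in gametophyte development, had the lowest level of the family. It had 92, 92 and 102 counts in *mdf-1* and 186, 154 and 171 in WT, which is 1.78, 1.80 and 1.92 FPKM in *mdf-1* (1.83 ± 0.0757, SD, n = 3) and 3.10, 2.57 and 2.67 FPKM in WT (2.78 ± 0.284, SD, n = 3). The genotypes did not overlap. The log2 fold change was -0.59 (SE 0.14, 95% confidence interval -0.92 to -0.27, edgeR with Benjamini-Hochberg adjustment, adjusted p = 0.00597). The 2 members with a listed retained intron, *KRP2* and *KRP7*, hence changed in opposite directions.

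*KRP3* (AT5G48820, chr5:19792270-19794480, minus strand) had 229, 189 and 208 counts in *mdf-1* and 203, 218 and 200 in WT. Its levels were 4.48, 3.73 and 3.95 FPKM in *mdf-1* (4.05 ± 0.384, SD, n = 3), against 3.41, 3.67 and 3.15 FPKM in WT (3.41 ± 0.259, SD, n = 3). After scaling the *mdf-1* libraries all stood above the WT libraries, by a narrow gap that the raw counts did not show, and the difference was not called (log2 fold change 0.25, 95% confidence interval -0.03 to 0.54, edgeR with Benjamini-Hochberg adjustment, adjusted p = 0.10). *KRP5* (AT3G24810, chr3:9060836-9062003, plus strand), which acts in root and hypocotyl elongation, had 198, 189 and 206 counts in *mdf-1* and 244, 206 and 208 in WT. That is 4.70, 4.52 and 4.75 FPKM in *mdf-1* (4.66 ± 0.117, SD, n = 3) and 4.98, 4.20 and 3.97 FPKM in WT (4.38 ± 0.527, SD, n = 3), and the genotypes overlapped. Its log2 fold change was 0.09, with a 95% confidence interval of -0.19 to 0.38 that spans 0 (edgeR with Benjamini-Hochberg adjustment, adjusted p = 0.532).

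**Figure D2:**
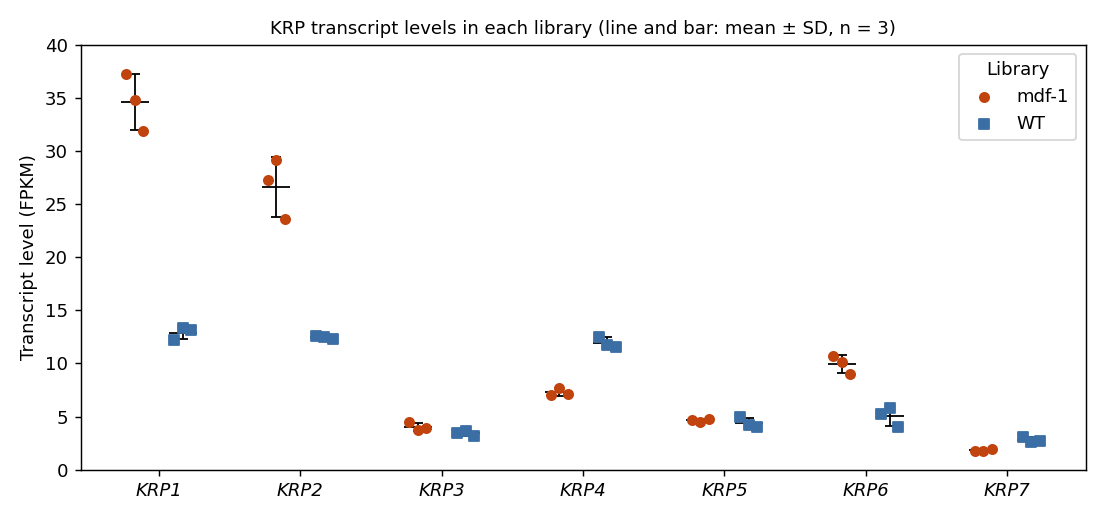
Transcript level of each KRP gene in FPKM (y axis, from 0) in the 3 *mdf-1* libraries (circles, left of each pair) and the 3 WT libraries (squares), with the mean and SD. The *mdf-1* points of *KRP1* (31.9 to 37.2 FPKM), *KRP2* and *KRP6* stand above all WT points, those of *KRP4* and *KRP7* below them.

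**Figure D3:**
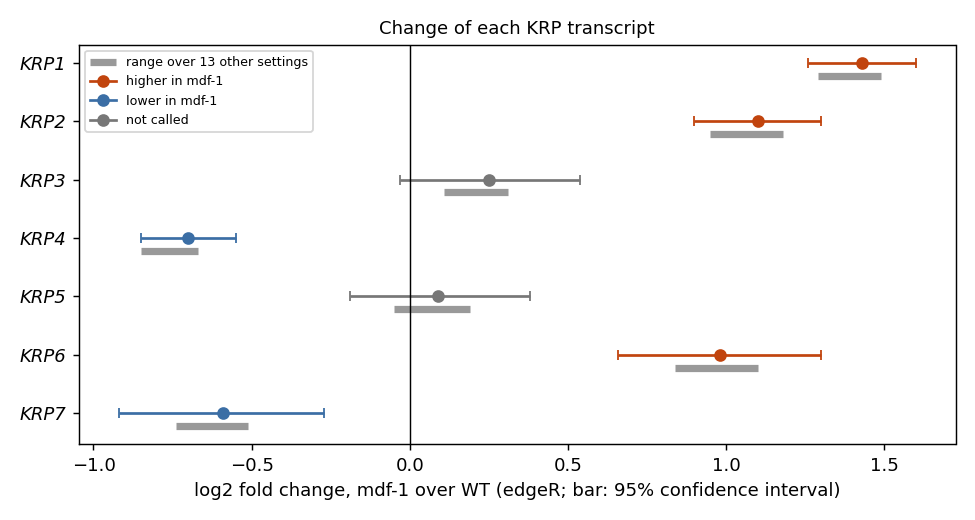
log2 fold change of *mdf-1* over WT for each KRP gene with its 95% confidence interval (points and thin bars, edgeR) and the range of the same estimate over 13 other processing settings (grey bars). The intervals of *KRP3* and *KRP5* include 0, and those of the other 5 genes do not.

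The calls of the 5 changed members held in all 13 other settings, which comprised DESeq2, 3 other scalings, 2 other filters, the replicate number as a block and each library left out in turn. Over them the log2 fold change ran from 1.29 to 1.49 for *KRP1*, from 0.95 to 1.18 for *KRP2*, from 0.84 to 1.10 for *KRP6*, from -0.85 to -0.67 for *KRP4* and from -0.74 to -0.51 for *KRP7*. *KRP3* was called in none of them, at 0.11 to 0.31. *KRP5* was called in none either, at -0.05 to 0.19, and changed sign with total-count scaling.

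Read by length, the order of the family differed between the genotypes. In *mdf-1* the levels ran from *KRP1* through *KRP2*, *KRP6*, *KRP4*, *KRP5* and *KRP3* down to *KRP7*, and no neighbours in this order overlapped between libraries. The step from *KRP5* to *KRP3* was very narrow, with the lowest *KRP5* library at 4.52 FPKM and the highest *KRP3* library at 4.48 FPKM. In WT *KRP1*, *KRP2* and *KRP4* stood together at 12.9, 12.5 and 11.9 FPKM, with overlapping ranges between neighbours, followed by *KRP6* and *KRP5*, which also overlapped, then *KRP3* and *KRP7*. By FPKM over its full counted length, *KRP4* was thus level with *KRP1* and *KRP2* in WT and stood below *KRP6* in *mdf-1*. The overlap with *CYTB5-B* takes up 38.7% of that length, and how reads there were counted is not given. The level of *KRP4* and its place in both orders are therefore uncertain.

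The summed level of the 7 transcripts was 93.2, 91.8 and 82.2 FPKM in *mdf-1* (89.1 ± 5.96, SD, n = 3) and 54.0, 53.8 and 50.7 FPKM in WT (52.9 ± 1.86, SD, n = 3). The sum was 1.69-fold higher in *mdf-1*, with no overlap, and an exact two-sided permutation test gave p = 0.10, the smallest that 3 against 3 libraries allow. *KRP1*, *KRP2* and *KRP6* made up 80.7, 80.6 and 78.4% of the pool in *mdf-1*, against 55.6, 58.8 and 58.1% in WT. The share of *KRP1* alone averaged 38.9% in *mdf-1* and 24.4% in WT, and that of *KRP4* 8.20% in *mdf-1* and 22.5% in WT. The level of *KRP4* is uncertain because of its overlap with *CYTB5-B*, and the sum and the shares carry that uncertainty. In FPKM, *KRP4* and *KRP7* together gave 8.82, 9.51 and 9.04 in *mdf-1* and 15.6, 14.3 and 14.1 in WT, so their fall was small beside the gain of the 3 that rose.

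**Figure D4:**
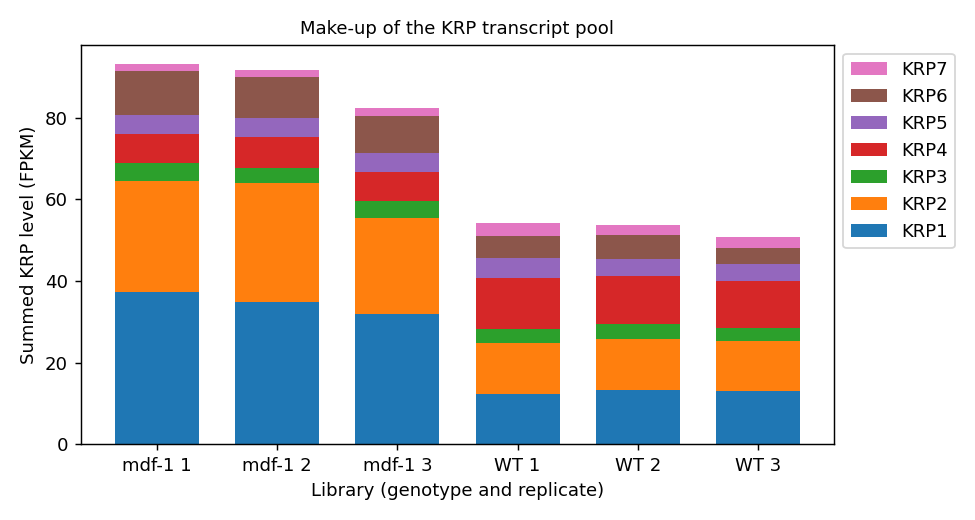
Summed FPKM of the 7 KRP genes in each library (bars from 0), split by gene, with *mdf-1* libraries left and WT libraries right. The *mdf-1* bars reach 82.2 to 93.2 FPKM and the WT bars 50.7 to 54.0 FPKM, and most of the difference is *KRP1* and *KRP2*.

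The kinase that KRPs inhibit did not show a change of this kind. *CDKA;1* had 27.8, 29.2 and 31.6 FPKM in *mdf-1* and 28.4, 28.5 and 29.9 FPKM in WT (log2 fold change 0.03, edgeR adjusted p = 0.639), and the sign turned with upper-quartile and total-count scaling and without *mdf-1* replicate 3. The summed KRP level over the *CDKA;1* level was 3.35, 3.15 and 2.60 in *mdf-1* and 1.91, 1.88 and 1.70 in WT, a ratio of transcripts and not of proteins (exact two-sided permutation p = 0.10, again the smallest possible). Of 12 CDK, CKS and WEE1 genes, 2 rose (16.7%) and 5 fell (41.7%), against 33.5% and 33.9% of all tested genes, among them *CKS1*, a CDK subunit (0.51), and *CDKD;3*, a CDK-activating kinase (-0.63), both as log2 fold changes.

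Of the D-type cyclins, the partners of CDKA;1 that KRPs bind, 2 of 10 rose and 6 fell, beside 33.5% of all tested genes higher and 33.9% lower, with a median log2 fold change of -0.54. With 8 of 10 called, against 67.4% of all genes, the number of calls was near the background. *CYCD3;1* had 10.2, 10.3 and 14.1 FPKM in *mdf-1* and 22.3, 22.5 and 24.5 FPKM in WT (log2 fold change -1.0, edgeR adjusted p = 2.63e-04). *CYCD2;1* moved like *KRP1* and *KRP2*, with 26.1, 27.3 and 23.3 FPKM in *mdf-1* and 14.8, 16.6 and 15.2 FPKM in WT (0.73, edgeR adjusted p = 8.68e-05). *KRP1* and *CYCD3;1*, whose products bind each other, therefore changed in opposite directions. Of 9 tested A-type cyclins 1 rose (11.1%, against 33.5% of all tested genes) and 4 fell (44.4%, against 33.9%), with *CYCA2;3*, which restrains endoreduplication, at a log2 fold change of -1.46.

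Among 9 genes of the ligases that degrade KRP proteins, 6 rose (66.7%) and 2 fell (22.2%), beside 33.5% and 33.9% of all tested genes. The rise took in *ASK1* and *ASK2*, adaptor subunits (0.55 and 0.53 as log2 fold changes), *RHF1A* and *RHF2A*, RING ligases for KRP6 in gametophytes (0.49 and 0.33), and *SKP2A*, an F-box protein better known for degrading E2FC and DPB (0.76). *SKP2B*, an F-box protein for KRP1, was called at 0.38 (edgeR adjusted p = 0.0424) with overlapping genotypes, and the call was lost without any 1 library other than *mdf-1* replicate 3 (adjusted p = 0.0619 to 0.132), with upper-quartile or total-count scaling, with the filter of 10 counts in every library and with the replicate block. *RKP*, a RING ligase for KRP1, fell (-0.50), with 6.95, 7.10 and 6.99 FPKM in *mdf-1* and 9.61, 10.2 and 10.1 FPKM in WT. *FBL17*, the F-box protein that removes several KRPs before S phase, fell slightly (-0.24, edgeR adjusted p = 0.0131), and the call was lost without *mdf-1* replicate 2 (adjusted p = 0.0516) or WT replicate 3 (0.0535).

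The SIAMESE and SIAMESE-RELATED genes, the other plant family of CDK inhibitors, had members called in both directions, with 4 of 14 higher (28.6%) and 8 lower (57.1%), beside 33.5% and 33.9% of all tested genes. Their median log2 fold change was -0.51, against 0.25 for the KRPs, and this difference was not tested. *SMR4* had the largest rise (log2 fold change 1.18) and *SMR9* the largest fall (-2.24) in this list. Downstream of the KRPs, *RBR1*, the retinoblastoma homologue, fell (-0.71, edgeR adjusted p = 2.37e-05), while *E2FB* (-0.14) and *E2FC* (0.14) were not called. With total-count scaling *E2FB* was called, at -0.29 (edgeR adjusted p = 0.0298). Of the 9 RBR1, E2F and DP genes 1 rose and 2 fell, 3 calls in all, below the 67.4% of all tested genes. One of the 2 that fell, *E2FA* (-0.29, edgeR adjusted p = 0.0416), lost its call without *mdf-1* replicate 1 or 2 or WT replicate 2 or 3 (adjusted p = 0.0958 to 0.144). Of 5 mitotic genes none rose and 4 fell (80%, against 33.9% of all tested genes), with *CDC20.1* at -0.91.

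**Figure D5:**
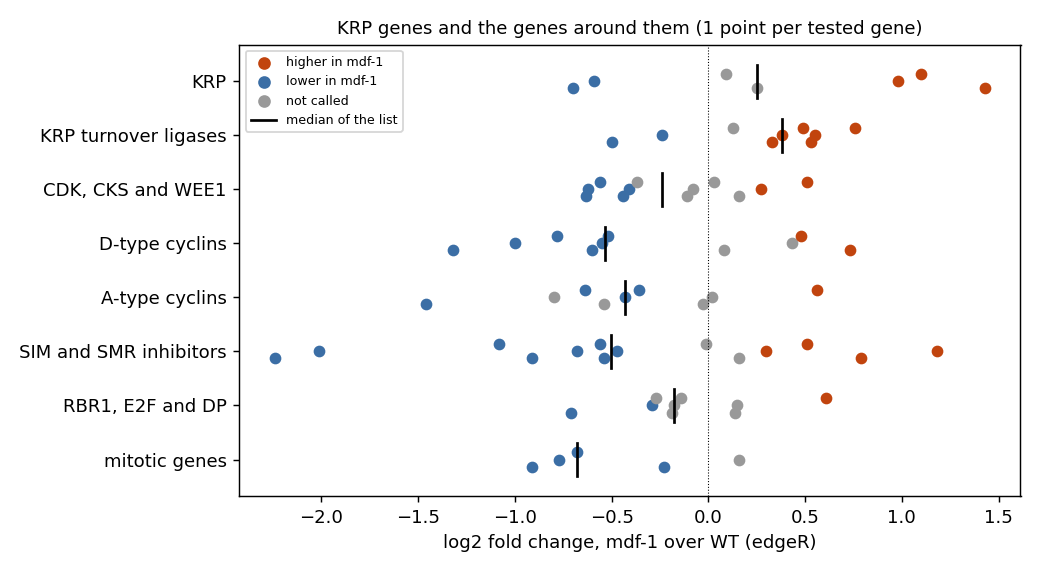
log2 fold change of *mdf-1* over WT for each tested gene of the KRP family and of 7 lists around it, with red for higher, blue for lower and grey for not called (edgeR adjusted p of 0.05), and a vertical line at the list's median. The KRP median is 0.25 with members on both sides of 0, and the medians of the D-type cyclins (-0.54) and mitotic genes (-0.68) lie below 0.

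Markers of root tissues moved with the genotype beside all of these values. All 8 endodermis genes were lower in *mdf-1*, with summed levels of 28.5 to 32.6 FPKM in *mdf-1* and 81.7 to 95.6 FPKM in WT, and so were all 6 root hair genes, with 9.44 to 11.1 FPKM in *mdf-1* and 31.9 to 45.4 FPKM in WT. Of 4 root tip genes 3 fell, led by *PLT1* (log2 fold change -3.54), and of 7 photosynthesis genes 3 rose and 1 fell. Across all tested genes 33.5% were higher and 33.9% lower, 67.4% in all. Lower were 100% of the endodermis, 100% of the root hair and 75% of the root tip genes. Of the photosynthesis genes 42.9% were higher and 14.3% lower. The 2 tested shoot meristem genes split, with *STM* at 1.14 and *CLV1* at -1.15, and *WUS* and *CLV3* were too low to test. The part of tissue make-up in the KRP values was not tested.

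The promoters were searched for 3 motifs on both strands, in windows of 250 bases before to 50 after each annotated gene start. The E2F sites TTTCCCGC and TTTGGCGC were in no KRP window and in 1.21% of 27443 windows. The core AACGG of the element through which MYB3R factors act on mitotic genes was in 5 KRP windows and in 24.7% of all. *KRP1* held 7 copies, *KRP7* 5, *KRP2* 3, and *KRP3* and *KRP6* 1 each, and *KRP4* and *KRP5* held none. At least 7 copies were found in 2 of the 27443 windows, and at least 5 in 17 (0.0619%). *KRP1*, which rose, and *KRP7*, which fell, are thus both rich in these letters. The 250 bases before the *KRP1* start (chr2:9978091-9978340, minus strand) are shown for 6 of its copies, with AACGG and its reverse complement CCGTT in capitals.
KRP1: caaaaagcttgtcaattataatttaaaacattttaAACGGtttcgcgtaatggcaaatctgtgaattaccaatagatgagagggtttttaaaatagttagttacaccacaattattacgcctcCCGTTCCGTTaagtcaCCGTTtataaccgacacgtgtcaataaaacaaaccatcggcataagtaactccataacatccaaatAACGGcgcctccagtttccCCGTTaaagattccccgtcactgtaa
The pattern of the DNA damage factor SOG1, CTT and AAG with 7 bases between them, was in the windows of *KRP6*, from 5 bases before the start, and *KRP7*, from 141 bases before it, and in 11.8% of all windows. Both are shown with 6 bases on each side and the pattern in capitals, at chr3:6617938-6617962 for *KRP6* and chr1:18366867-18366891 for *KRP7*, both on the minus strand.
KRP6: caattgCTTTGAAAGGAAGccaaaa
KRP7: gggttgCTTTAAAAGGAAGctaaaa
*KRP6* stood on the study's lists of SOG1 targets and of genes that respond to the DNA-damaging drug zeocin, and no other member was found on them. The copy of the SOG1 list used here is shortened, so a member not found on it may still be listed. The zeocin list comes from the study's overlap with genes changed in *mdf-1*, so a member not found there may still respond. *KRP6* and *KRP7* share the pattern and changed in opposite directions.

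By the pattern over the 6 libraries, the tested genes most like *KRP1* were *UBC33*, a ubiquitin-conjugating enzyme (Pearson r of log2 CPM, counts scaled by library size, 0.9997), *MCD1*, a chloroplast division protein (0.9996), and *NAC083*, a transcription factor (0.9996). Such values were common: 767 genes, 3.42% of those tested, had an r above 0.99 with *KRP1*. The size of a change does not enter r, and *UBC33*, *MCD1* and *NAC083* had log2 fold changes of 0.67, 0.39 and 0.32, against 1.43 for *KRP1*. The members could be told apart from each other by their reads, since no 50-base window of any member occurred elsewhere in the genome.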

How the data were processed

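Total RNA of whole seedlings was sequenced from 3 *mdf-1* and 3 WT replicates, grouped by the genotype label. The submitters' processing notes name fastp, HISAT2, featureCounts and the TAIR10 build. The authors deposited counts of reads per gene without normalization, and FPKM values, which equal the counts over gene length and a scaled library size. The same table holds the authors' size-factor-scaled counts and DESeq2 comparison, which were not used. The study's splicing tables and primer list were used for positions and sequences only.

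Counts were fitted in R 4.3.3 with edgeR 4.0.16 (filterByExpr, TMM scaling, robust glmQLFit and glmQLFTest modelled on genotype alone), and a gene was called at a Benjamini-Hochberg adjusted p below 0.05 over all tested genes. DESeq2 1.42.0 was an alternative, beside other scalings and filters, the replicate number as a block and each library left out. FPKM served to compare levels between genes, and the summed FPKM was compared by an exact permutation test. Correlations used log2 CPM with a prior count of 2. The edgeR steps were tested on simulated data.

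Gene models, introns and promoter windows came from the RefSeq annotation of TAIR10.1, whose gene ends matched the table's for all 7 members. Python 3.11.15 with pandas 2.3.3 and matplotlib 3.10.9 was used. The members and lists were chosen with earlier results of these data known. Named genes were all members, *MDF*, up to 4 called genes a list with the largest absolute log2 fold change, 13 genes that act with KRPs whatever their values, and the 3 genes most like the member that changed most. Of these, a part is named in the text.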

Additional observations from a re-analysis of the deposited data

How the results depend on the processing

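The counts of calls over the KRP members, over the pooled lists and over all genes each stayed within 1.5 times the main value in all 13 settings. The summed KRP level was judged by its difference between *mdf-1* and WT, 36.2 FPKM. In the 7 settings that apply to it (counts per kilobase with TMM scaling, and each library left out) this difference moved by less than 5.96 FPKM, the larger group SD. With total-count scaling *KRP5* reversed to a log2 fold change of -0.05 (edgeR with Benjamini-Hochberg adjustment, adjusted p = 0.739). *CDKA;1* reversed to -0.02 with upper-quartile scaling, -0.11 with total-count scaling and -0.02 without *mdf-1* replicate 3, and was called in none of them. The causes were not tested. Leaving out 1 library at a time gave a KRP sum of 34.2 to 39.6 FPKM above WT. The replicate numbers did not pair the libraries (correlations of deviations 0.04, 0 and 0.08), and with the number as a block edgeR called 7302 genes higher and 7441 lower, and the same numbers of KRP members, 3 and 2.

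Depth limits *KRP7* most, with 92 counts in its lowest library. Expression was measured in 1 allele, and proteins were not measured. No pseudocount was needed for untransformed sums. Counts of single lists were not recounted under each setting. The 6 ligase genes that rose include *SKP2B*, whose call was lost in the settings given above. The 2 ligase genes that fell become 1 where *FBL17* loses its call, and likewise the 2 that fell among the RBR1, E2F and DP genes where *E2FA* does. *KNOLLE*, among the 4 mitotic genes that fell, lost its call (edgeR adjusted p = 0.0698 to 0.0898) without *mdf-1* replicate 1 or 2 or WT replicate 3, and *CYCD4;2* (0.0612) without WT replicate 3.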
